A study of Mus musculus with 12 samples.

Results

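Untrained mice were used here to set slow type I myofibers of the soleus against fast type IIb myofibers of the extensor digitorum longus (EDL), a fast muscle of the lower hindlimb. The members were taken by their labels and were 6 of the 12 sequenced libraries, 3 per fibre type. Every mouse was a male C57BL/6J mouse, its age is given as 8 weeks, the labels name no transgene or deletion, and none of these 6 libraries came from a mouse that had run on the treadmill. The other 6 libraries came from the same fibre types after 6 weeks of treadmill running (60 min at 12 to 16 m/min, 5 days a week) and a rest of 3 days, and they serve below as a second set of samples. Soleus was digested in collagenase (2 mg/ml, 37 °C) for 90 min and EDL for 60 min, so fibre type, muscle and digestion time cannot be told apart. Myosin heavy chain protein in one piece of each fibre gave its type, and the rest was lysed for sequencing with a kit made for very small amounts of RNA. The labels do not say how many fibres or animals stand behind a library, so a p-value here reflects the spread among the deposited libraries, part of which may be technical.

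A myofiber is a single multinucleated muscle cell, and its type is named after the myosin heavy chain it makes. Type I fibres use the slow myosin Myh7, contract slowly, resist fatigue and burn fat and glucose in mitochondria. Type IIb fibres use Myh4, the fastest myosin of mouse limb muscle, and draw on glycogen and glycolysis for short bursts. Many other parts of the contractile apparatus exist as slow and fast versions encoded by separate genes, among them the myosin light chains, the troponins and the calcium pumps of the sarcoplasmic reticulum.

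The labels were first checked against the transcripts of myosin, the protein by which the fibres had been typed. Of the counts for Myh7, Myh2, Myh1 and Myh4, Myh7 took 80.5%, 98.7% and 97.1% in type I libraries 1, 2 and 3, and none in any type IIb library. Myh4 took 0.0523%, 0% and 0.195% in type I libraries, against 99.7% or more in each type IIb library. Type I library 1 also held Myh2 (10.5%) and Myh1 (8.92%), the myosins of the intermediate fast fibre types, and so stands apart from the other two. Totals were 11726789 to 24995288 counts in type I libraries and 9707337 to 14408531 in type IIb libraries. At least 10 counts were found for 11703, 9711 and 14428 genes in type I libraries, against 3636, 9170 and 6002 in type IIb libraries. The groups did not overlap (11947 ± 2368 and 6269 ± 2777 genes, SD, n = 3 each), and an exact two-sided permutation test gave p = 0.1, the smallest that 3 against 3 libraries allow. Mitochondrially encoded genes took 16.5%, 21.7% and 14.6% of counts in type I libraries and 28.3%, 26.7% and 28.3% in type IIb libraries (exact two-sided permutation p = 0.1).

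Marker sums of endothelial, mural, fibroblast and Schwann cells were higher in every type I library than in any type IIb library. Those of the other lists overlapped between the groups. The 13 endothelial markers summed to 1887, 58.0 and 863 CPM (counts scaled to the library total) in type I libraries 1, 2 and 3, and all 13 of them, Pecam1, Cdh5 and Kdr included, were at 0 in every type IIb library. The 9 mural cell markers summed to 32.6 to 1124 CPM in type I libraries and all 9 were at 0 in type IIb libraries. Fibroblast markers (11 genes) summed to 300, 27.0 and 9605 CPM in type I libraries, against 3.12 to 10.7 CPM in type IIb libraries, where Pdgfra, Lum, Mfap5 and Pi16 were at 0. Tenocyte markers summed to 35.0 to 4963 CPM in type I and 12.0 to 328 CPM in type IIb libraries, with Comp, Fmod and Mkx at 0 in type IIb. Satellite cell markers summed to 134 to 510 CPM in type I and 30.7 to 305 CPM in type IIb libraries, where Pax7 was at 0. Macrophage markers summed to 2.89 to 122 CPM in type I, against 12.4 to 114 CPM in type IIb libraries, with Ptprc and Csf1r at 0 in type IIb. Erythroid markers reached 1616 CPM in type I library 1 and at most 18.8 CPM in the other two, against 0 to 8.24 CPM in type IIb libraries. Schwann cell markers summed to 35.9 to 222 CPM in type I and 0 to 5.56 CPM in type IIb libraries, and adipocyte markers stayed at or under 0.347 CPM in all 6. edgeR's quasi-likelihood test, described below, called no marker of these lists between the fibre types, although all 12 tested endothelial, all 8 tested mural and 8 of 10 tested fibroblast markers had an unadjusted p under 0.05 and a higher level in type I. DESeq2 called 11, 6 and 6 of them higher, limma-voom 7, 5 and 2, and limma on log2(FPKM + 1) 0, 1 and 0. Of the other lists, edgeR gave an unadjusted p under 0.05 to 1 satellite cell, 3 erythroid and 2 Schwann cell markers, all higher in type I, and to no tenocyte or macrophage marker. DESeq2 called 2 Schwann cell markers higher, limma-voom called 2 Schwann and 2 satellite cell markers higher and 1 macrophage marker lower, and limma on log2(FPKM + 1) called 1 Schwann and 1 satellite cell marker higher. Fewer such cells and less RNA per cell cannot be told apart, the part of these cells in the results below was not tested, and counts without the libraries in question are given beside the main counts.

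**Figure D1:**
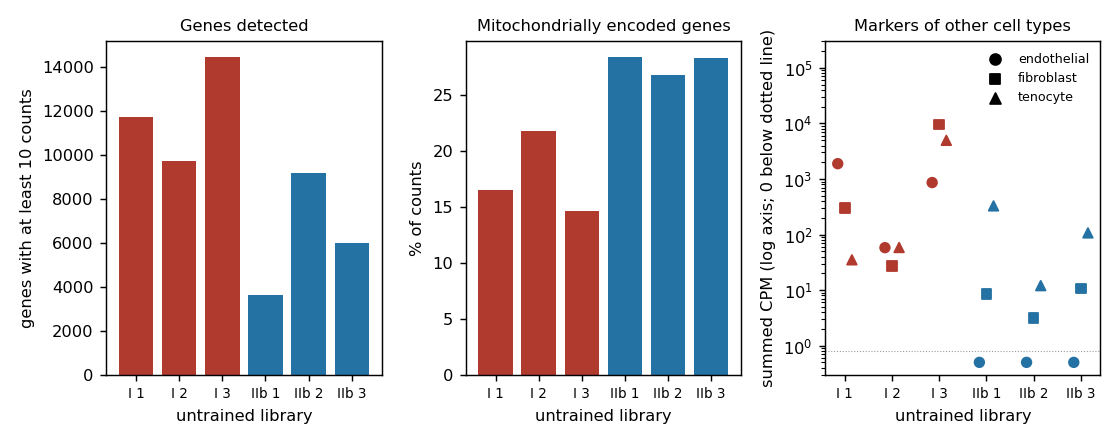
Genes with at least 10 counts, percent of counts from mitochondrially encoded genes, and summed markers of endothelial cells, fibroblasts and tenocytes (CPM of the library total, log axis, libraries at 0 drawn below the dotted line) in each of the 3 type I (red) and 3 type IIb (blue) untrained libraries. Type I libraries held more genes (9711 to 14428, against 3636 to 9170) and a smaller mitochondrial share (14.6% to 21.7%, against 26.7% to 28.3%), and endothelial markers were at 0 in all 3 type IIb libraries.

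Few genes passed the test, and many of those that did build the contractile apparatus. Here and below, a gene is named as called, or not called, by edgeR unless another tool is given. Of 11747 genes tested, edgeR's quasi-likelihood test with Benjamini-Hochberg adjustment called 54 (0.46%) at an adjusted p under 0.05, namely 30 (0.255%) above and 24 (0.204%) below type IIb in the type I fibres. For all 54 the 3 type I libraries lay wholly above or wholly below the 3 type IIb libraries. This was the case for 27.7% of all genes tested, with type I above in 22.8% and below in 4.88%. With no adjustment, 1825 genes (15.5%) had p under 0.05 and a higher level in type I, and 228 (1.94%) a lower one. Over all genes the log2 fold change had a median of 0.85. It moved to 1.17 with the size factors of the RLE method, to 1.45 with library totals alone and to 2.00 with limma-voom. With 1 library left out it ran from 0.72 (without type I library 3) to 3.87 (without type IIb library 2). The expression filter was applied anew in those fits and passed 12437 to 13459 genes. Their medians, calls and adjusted p thus also reflect another set of genes. Values of gene lists are set beside the 0.85 of the main fit, which is thus no fixed reference. With library totals alone the calls split into 35 higher and 14 lower (71.4% higher, against 55.6% in the main comparison). Without the type I libraries of most endothelial counts (1 and 3) 12 genes were called higher and 7 lower, but this leaves 1 type I library, which is then assumed to vary like the libraries of the other groups. Without library 1 of each fibre type 18 and 16 were called, and both settings were chosen after seeing the data. Limma-voom with quality weights called 39 of the 54 genes and left 15 uncalled, among them Mylpf, Myl2, Myh4, Myl1, Myl3, Tnnt1, Tnnc1, Tpm3, Tpm1 and Atp2a2. Leaving out 1 library at a time gave 14 (without type I library 3) to 29 (without type IIb library 2) higher and 8 (without type I library 3) to 21 (without type IIb library 1) lower genes.

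The 2 directions differed in how far down the lower fibre type went. Among the 30 genes higher in type I fibres, the 3 type IIb libraries together held 0 counts for 7 genes, 1 to 3 counts for 8 and over 100 counts for 7. Folds among them ran from 4.61 to 27080 with a median of 2625, lower bounds included, and 27 exceeded 100. Among the 24 genes lower in type I fibres, the type I libraries held 0 counts for 1 gene (Tspan8) and over 100 counts for 20. Their folds ran from 4.22 to 114763 with a median of 14.7, and 5 exceeded 100. The genes lower in type I were thus mostly still counted there. Many of those higher in type I were at or near 0 in type IIb libraries. These counts were not scaled to depth. TMM-scaled sizes were 13986919 to 37834797 in type I and 9261943 to 12474296 in type IIb libraries. Thinned to equal totals, type I libraries held 9371 to 13136 genes with at least 10 counts and type IIb libraries 3636 to 8811. The part of depth and gene detection in this contrast was not tested. Of the 24 lower genes, 11 had their highest type I value in library 1, the library with Myh2 and Myh1, 9 in library 2 and 4 in library 3.

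**Figure D2:**
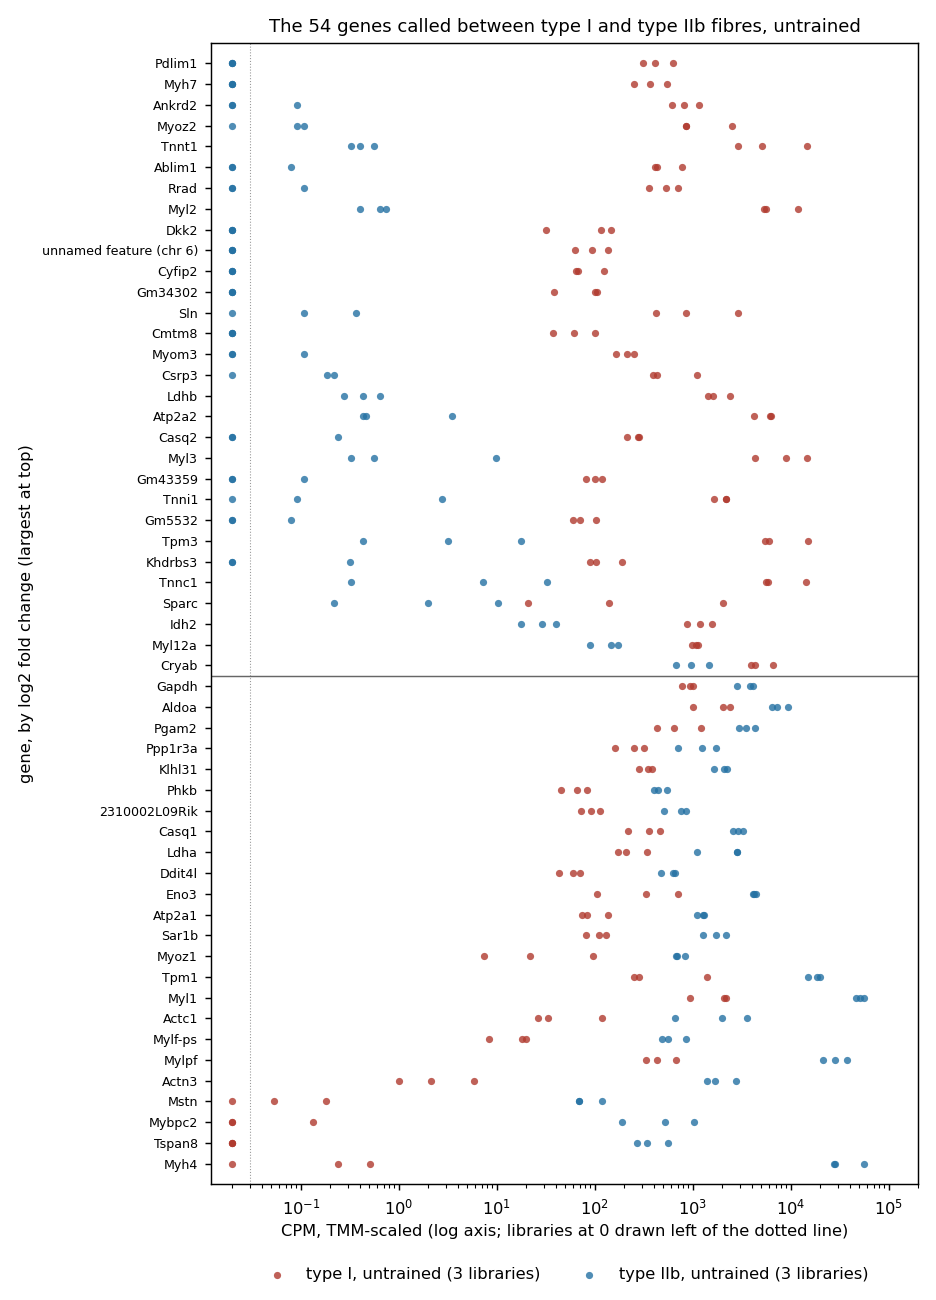
Level of each of the 54 called genes in the 6 untrained libraries, as CPM on TMM-scaled library sizes (log axis, libraries at 0 drawn left of the dotted line), ordered by log2 fold change with type I (red) and type IIb (blue) libraries as points. Above the horizontal line are the 30 genes higher in type I fibres, many with type IIb libraries at or near 0, and below it the 24 lower genes, most of which kept a measurable type I level.

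The promoters of 4 called genes are shown, because in each direction these had the smallest adjusted p among genes with a usable window. For this the RefSeq start had to lie within 100 bases of a GENCODE M21 transcript start. Windows with more than a few exon bases were skipped. Myoz2 and Ankrd2 are a Z-disc protein and a stretch-responsive protein and were higher in type I. Mylpf and Mybpc2, the fast regulatory light chain and the fast myosin-binding protein C, were lower. Each line holds the 250 bases before the RefSeq start of the gene (GRCm38.p6), 5′ to 3′ on the strand of the gene: Myoz2 at chr3:123034988-123035237 (minus strand), Ankrd2 at chr19:42035777-42036026 (plus), Mylpf at chr7:127211358-127211607 (plus) and Mybpc2 at chr7:44524670-44524919 (minus). In Myoz2 and Ankrd2 the last 28 and 27 bases lie in an exon of the GENCODE M21 annotation, whose start is a little further upstream. Capitals mark matches, on either strand, to the E-box CANNTG bound by MyoD-family factors, the A/T-rich box bound by MEF2 factors, the TATA box TATAAA and the M-CAT element CATTCC bound by TEAD factors, and matches of different motifs may overlap.
Myoz2: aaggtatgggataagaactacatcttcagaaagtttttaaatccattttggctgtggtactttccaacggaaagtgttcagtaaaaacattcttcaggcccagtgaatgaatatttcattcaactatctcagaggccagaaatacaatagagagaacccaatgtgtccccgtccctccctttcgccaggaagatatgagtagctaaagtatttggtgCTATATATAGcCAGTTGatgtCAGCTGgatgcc
Ankrd2: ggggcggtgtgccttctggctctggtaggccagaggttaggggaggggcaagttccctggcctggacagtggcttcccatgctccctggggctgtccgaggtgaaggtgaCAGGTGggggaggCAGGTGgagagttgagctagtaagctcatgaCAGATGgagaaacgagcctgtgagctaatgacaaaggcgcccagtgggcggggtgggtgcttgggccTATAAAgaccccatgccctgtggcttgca
Mylpf: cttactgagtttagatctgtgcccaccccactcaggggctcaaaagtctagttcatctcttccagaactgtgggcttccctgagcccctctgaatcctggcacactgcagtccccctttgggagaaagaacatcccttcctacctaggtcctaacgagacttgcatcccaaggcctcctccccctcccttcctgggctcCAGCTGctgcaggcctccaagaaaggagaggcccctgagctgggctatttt
Mybpc2: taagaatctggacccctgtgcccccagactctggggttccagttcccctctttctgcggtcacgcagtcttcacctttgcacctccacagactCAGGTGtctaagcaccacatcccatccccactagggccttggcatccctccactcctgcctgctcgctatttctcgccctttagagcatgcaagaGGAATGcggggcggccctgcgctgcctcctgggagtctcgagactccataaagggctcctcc
The Myoz2 window had a MEF2 box beginning 33 bases before the start and E-boxes at 22 and 12 bases. E-boxes in the Ankrd2 window began at 140, 127 and 96 bases and a TATA box at 29 bases. Mylpf had an E-box at 51 bases, and Mybpc2 an E-box at 157 and an M-CAT element at 62 bases. RefSeq windows were held for 43 of the 54 called genes, and some genes had more than one window. An E-box was in 24 of 31 windows of higher genes (77.4%), in 19 of 24 windows of lower genes (79.2%) and in 66.2% of all 32851 windows. A MEF2 box was in 1 of 31 windows of higher genes, 1 of 24 of lower genes and 0.508% of all windows. TATA boxes were in 6 of 31, 5 of 24 and 12.4%, and M-CAT elements in 4 of 31, 6 of 24 and 12.6%. These matches describe the letters only.

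Slow thick-filament genes set the fibre types far apart. Of the 8 genes of this list 7 were tested, and 4 were called higher in type I and none lower. Their median log2 fold change was 12.30, or 11.34 with the 3 members that had a fibre type at 0 set at their lower bound, against 0.85 over all genes. Levels of single genes are CPM on TMM-scaled library sizes, given for libraries 1, 2 and 3 in that order or as mean ± SD (n = 3). Myh7, the slow myosin heavy chain (chr14:54970684-54994626, build mm10), had 367, 539 and 249.6 CPM in type I libraries and 0 in all 3 type IIb libraries. Its fold was at least 3670.3 against a floor of 3 counts over the type IIb group (adjusted p = 8.54e-06). Fibres were typed by their myosin heavy chain protein, so a difference in Myh7 was largely set by how they were chosen. Exons of the antisense RNA Mhrt and of 2 other genes cover 13.3% of the Myh7 exon bases, and the library kit does not mark strand. Myl2, the slow regulatory light chain (chr5:122100951-122113472), had 5518, 11703 and 5333 CPM in type I libraries against 0.648, 0.401 and 0.735 CPM in type IIb libraries. This is a 11467-fold difference between groups that did not overlap (log2 13.61, SE 1.02, adjusted p = 1.16e-06). Myl3, the slow essential light chain, had 8939, 14695 and 4256 CPM in type I, against 0.324, 9.78 and 0.551 CPM in type IIb libraries, a 1875-fold difference (adjusted p = 0.00651). Type IIb library 2 held most of the Myl3 counts of its group, and the call was lost without type IIb library 3 or any 1 of the type I libraries (adjusted p up to 0.0784). Myom3, an M-band protein of slow fibres, had 211, 248 and 162 CPM in type I libraries and 1 count in the type IIb group. Its ratio was 6258 with a 95% counting interval of 1123 to 247188 (adjusted p = 0.000253). Mybpc1, which encodes the slow myosin-binding protein C, was the exception in this list: it had 1635, 1520.3 and 1212 CPM in type I, against 718, 1131 and 1508 CPM in type IIb libraries, overlapping ranges that the test did not separate (log2 0.38, SE 0.42, adjusted p = 0.872).

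The 4 slow thin-filament genes, which encode the slow troponin subunits and the slow tropomyosin, were all called higher in type I, with a median log2 fold change of 10.64. Tnnt1, the slow troponin T that anchors the complex to tropomyosin, had 5009, 14570.5 and 2891 CPM in type I, against 0.324, 0.401 and 0.551 CPM in type IIb libraries, a 13495-fold difference (adjusted p = 0.0143). Tnni1, the slow inhibitory subunit, had 1622, 2179 and 2162 CPM in type I, against 0, 2.73 and 0.0918 CPM in type IIb libraries, and was 1896-fold higher (adjusted p = 0.0196). Tnnc1, the calcium-binding subunit of slow and cardiac troponin, had 5885, 14326 and 5507 CPM in type I, against 0.324, 7.21 and 32.3 CPM in type IIb libraries. It was 542-fold higher (adjusted p = 0.0185), and the type IIb values were spread from near 0 in library 1 to their highest in library 3. Tpm3, the slow tropomyosin that lies along the actin filament, had 5496, 15012 and 5969 CPM in type I, against 0.432, 3.21 and 17.8 CPM in type IIb libraries. The difference was 1055-fold (adjusted p = 0.0171), and Tpm3 shared with Tnnc1 the order of the type IIb libraries. In type I fibres library 2 was the highest for all 4 genes, with library 3 close to it in Tnni1. The calls were less firm with 1 library left out. Tnnt1 was called in none of the 6 leave-one-out comparisons, whichever library was removed (adjusted p up to 0.240). Tnni1, Tnnc1 and Tpm3 were called in 2 of 6 each, with highest adjusted p of 0.198, 0.182 and 0.141.

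Of 8 fast thick-filament genes edgeR called 4 lower in type I fibres and none higher, with a median log2 fold change of -5.39. Myh2, the type IIa myosin, named here after its values were seen, had 48.1, 4.72 and 6.03 CPM in type I, against 0, 0 and 0.0918 CPM in type IIb libraries. The groups did not overlap, with type I above (log2 8.95, adjusted p = 0.230). It was the 1 gene of the list with an unadjusted p under 0.05 and a higher level in type I, and DESeq2 and limma-voom called it higher. DESeq2 called 5 genes lower, limma-voom 3 and limma on log2(FPKM + 1) 4. Myh4, the type IIb myosin heavy chain (chr11:67238029-67260446), had 0.239, 0 and 0.502 CPM in type I libraries, against 28338, 55453 and 27712 CPM in type IIb libraries. This 114763-fold difference was the largest computed value among the called genes (adjusted p = 8.58e-05). As for Myh7, typing the fibres by myosin heavy chain protein largely set this difference in advance. Folds that are lower bounds or carry a counting interval may be larger, so Myh4 cannot be ranked above those genes. The intervals of Ablim1 and Rrad, for example, ran up to 633477 and 604458. Mylpf, the fast regulatory light chain (chr7:127208890-127214298), had 679, 433 and 329 CPM in type I libraries, against 36906, 21107 and 28114 CPM in type IIb libraries. It had the smallest adjusted p of the comparison (9.74e-07, log2 -5.90, SE 0.45). Myl1, the fast essential light chain, had 2089, 2161 and 933 CPM in type I, against 55764, 50278 and 46199 CPM in type IIb libraries, a 34.4-fold difference (adjusted p = 0.0242). Unlike Myh4, both light chains thus kept over 300 CPM in every type I library. Mybpc2 had 5 counts in type I libraries, all of them in library 3, against 188, 1022 and 524 CPM in type IIb libraries, and was 8488-fold lower (adjusted p = 8.24e-06). The uncalled Myom2, an M-band protein of fast fibres, had 0.847 ± 0.234 CPM in type I, against 63.2 ± 17.5 CPM in type IIb libraries (adjusted p = 0.230). Mylk2, the kinase of the regulatory light chain, had 18.6 ± 13.8 CPM in type I, against 75.1 ± 43.8 CPM in type IIb (adjusted p = 0.419).

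Of the fast thin-filament list 3 of 4 genes were tested, and edgeR called only Tpm1, while DESeq2 called 2 lower (Tpm1 and Tnni2), limma on log2(FPKM + 1) all 3 and limma-voom none. Tpm1, the fast and striated-muscle alpha-tropomyosin, had 1399, 251 and 282 CPM in type I, against 18471, 19882 and 14985 CPM in type IIb libraries, 32.5-fold lower in type I (adjusted p = 0.0128). Type I library 1 was the highest of its group, and the call was lost in 4 of the 6 leave-one-out comparisons (adjusted p up to 0.261). Fast troponin T, Tnnt3, had 1181, 67.7 and 9.81 CPM in type I libraries, against 19057, 24518 and 18289.8 CPM in type IIb libraries. Fast troponin I, Tnni2, had 1070.5, 68.6 and 5.44 CPM in type I libraries, against 14824, 20116 and 14263 CPM in type IIb libraries. The fibre types did not overlap for either gene, yet edgeR called neither (log2 -5.62, SE 2.11, adjusted p = 0.233 for Tnnt3 and log2 -5.43, SE 1.73, adjusted p = 0.230 for Tnni2). In both, type I library 1 stood more than 10-fold above the other two. Tnnc2, the fast troponin C, had 1 count in type I and 3 counts in type IIb libraries and was not tested, and 74.0% of its exon bases overlap Ube2c, so its reads cannot be told apart from those of that gene.

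The share of a slow gene and its fast partner puts each pair on one scale. For 15 pairs the slow member was taken as a percent of the FPKM of both, FPKM being the authors' counts per gene length and library total. Both members were called in opposite directions in 8 pairs, 1 member was called in 6, and neither in 1 (Slc16a1 and Slc16a3, the lactate transporters). The 8 include Myh7 with Myh4, on whose proteins the fibres were typed. In 10 pairs the fast share in every type I library was above the slow share in every type IIb library, in 2 it was the reverse, and in 3 the ranges overlapped. Among the 10 was the pair of Casq2 and Casq1, calsequestrins that hold calcium in the sarcoplasmic reticulum: the slow share was 31.6, 31.5 and 49.9% in type I libraries, against 0, 0.00650 and 0% in type IIb libraries. The fast Casq1 thus made 50.1% to 68.5% of the pair in type I libraries. Slow Myl3 made 78.7, 85.4 and 79.7% of its pair with Myl1 in type I, against 0.000500, 0.0167 and 0.00103% in type IIb libraries. Slow troponin I made 50.7, 95.6 and 99.6% of its pair in type I libraries, where library 1 was near parity, and 0, 0.00918 and 0.000436% in type IIb libraries. The reverse was seen for the myosin-binding proteins C, where slow Mybpc1 made 100%, 100% and 99.99% in type I, against 77.3, 49.7 and 71.97% in type IIb libraries. It was also seen for troponin C, whose fast member could hardly be counted. Authors' gene lengths differ from the exons of GENCODE M21 for several members (Myl2 499 against 1950 bases, Mylpf 433 against 1062), so shares between genes carry that uncertainty.

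**Figure D3:**
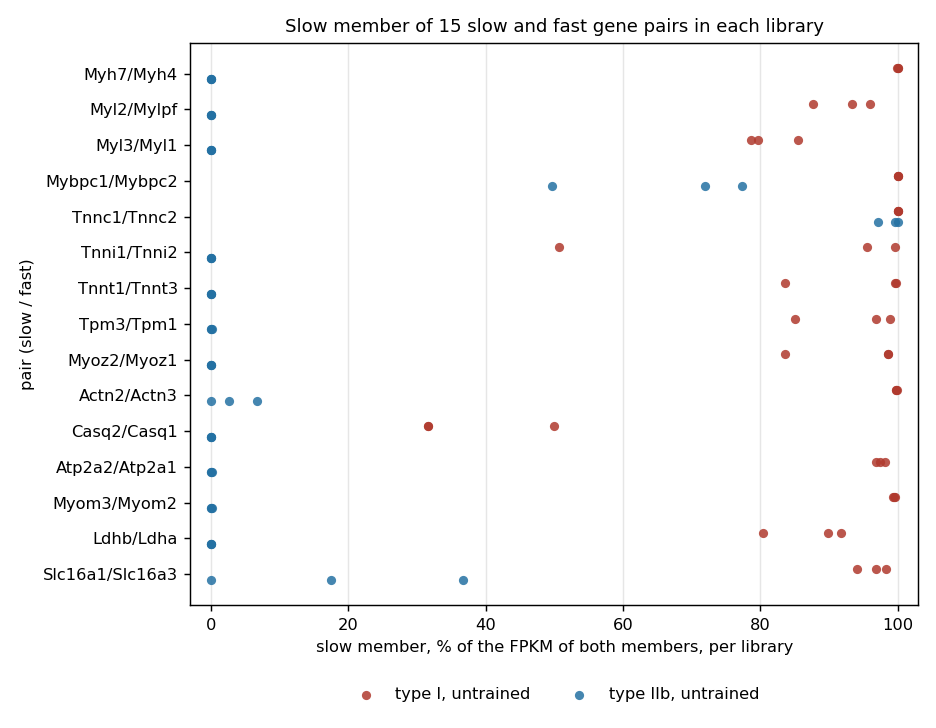
Slow member of each of 15 slow and fast gene pairs as percent of the FPKM of both members, in each type I (red) and type IIb (blue) untrained library. Type IIb points lie at or near 0 for most pairs, while type I points fall short of 100% for several, as low as 31.5% for Casq2 with Casq1. Mybpc1 with Mybpc2 stays high in type IIb libraries. So does Tnnc1 with Tnnc2, but Tnnc2 could hardly be counted in either fibre type, so that share does not reflect the level of Tnnc1.

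Per length, the transcripts of type I fibres were led by Acta1, the skeletal alpha-actin (23979 ± 5120 FPKM), and Myl2 (18983 ± 5200 FPKM), leaving mitochondrially encoded genes aside. Type IIb fibres were led by Myl1 (67193 ± 8972 FPKM) and Mylpf (60594 ± 19596 FPKM), with Acta1 at 19050 ± 1295 FPKM. Acta1 was not called between the fibre types (edgeR adjusted p = 0.958).

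Z-disc and stretch-sensing genes went both ways. The Z-disc anchors actin filaments at the ends of each sarcomere. Of 25 genes on this list 4 were called higher and 2 lower, with a median log2 fold change of 1.22. Myoz2, the slow-fibre calsarcin, had 841, 2516 and 857 CPM in type I libraries and 2 counts in the type IIb group. Its ratio was 19439 with a 95% counting interval of 5381 to 160518 (adjusted p = 1.16e-06). Ankrd2, a stretch-responsive ankyrin-repeat protein (chr19:42036000-42045110), had 617, 1148 and 807 CPM in type I libraries and a single count in type IIb libraries (adjusted p = 1.16e-06). Csrp3, the muscle LIM protein, had 395, 430.0 and 1089 CPM in type I, against 0.216, 0 and 0.184 CPM in type IIb libraries, a 6402-fold difference (adjusted p = 1.57e-05). Pdlim1, a PDZ and LIM domain protein that binds alpha-actinin, had 407, 619.9 and 312 CPM in type I libraries and no count in type IIb libraries. It was at least 4329-fold higher (adjusted p = 0.00173). On the fast side, Actn3, the alpha-actinin of fast fibres, had 5.85, 1.00 and 2.11 CPM in type I, against 1407, 2758 and 1689.8 CPM in type IIb libraries, 721-fold lower (adjusted p = 0.0304). Myoz1, the fast-fibre calsarcin, had 95.97, 21.7 and 7.40 CPM in type I libraries, against 683, 673 and 825 CPM in type IIb libraries, 22.7-fold lower (adjusted p = 0.0240). For both fast genes type I library 1 was the highest of its group. Actn3 was called in 1 and Myoz1 in 3 of the 6 leave-one-out comparisons, with adjusted p up to 0.405 and 0.108. Among the uncalled members Fhl1, a four-and-a-half-LIM protein, had 4392 ± 426 CPM in type I, against 58.4 ± 33.6 CPM in type IIb libraries (log2 6.23, SE 2.30, adjusted p = 0.231). Tcap, the titin cap protein, had 2611 ± 943 CPM in type I, against 1599 ± 1065 CPM in type IIb (adjusted p = 0.676), and Actn2, the alpha-actinin of all fibre types, 1254 ± 307 CPM in type I, against 70.4 ± 90.1 CPM in type IIb (adjusted p = 0.427).

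In the calcium list 3 of 19 tested genes were called higher and 2 lower, with a median log2 fold change of -0.93. Atp2a2 encodes the slow calcium pump that returns calcium to the sarcoplasmic reticulum. It had 6165, 6248 and 4244 CPM in type I, against 0.432, 3.45 and 0.459 CPM in type IIb libraries, a 3214-fold difference (adjusted p = 0.0185). Sln, sarcolipin, a small inhibitor of the pump, had 849, 423 and 2853 CPM in type I libraries and 5 counts in type IIb libraries, a 12189-fold difference (adjusted p = 6.91e-06). Casq2, the slow and cardiac calsequestrin, had 212, 273 and 279 CPM in type I and 3 counts in type IIb libraries, all of them in library 2 (adjusted p = 0.0194). These 3 genes were at or near 0 in every type IIb library. The fast partners kept a clear level in type I. Atp2a1, the fast calcium pump, had 137, 82.5 and 74.3 CPM in type I, against 1272, 1297 and 1095 CPM in type IIb libraries, 13.4-fold lower (adjusted p = 0.0109), and 21.9% of its exon bases overlap Rabep2. Casq1 had 357, 462 and 218 CPM in type I, against 2547, 2884 and 3208 CPM in type IIb libraries, 9.59-fold lower (adjusted p = 0.00138). Pvalb, parvalbumin, a soluble calcium buffer of fast fibres, had 73.3, 2.79 and 1.43 CPM in type I, against 23352, 12738 and 19913 CPM in type IIb libraries. The groups lay far apart, but the test did not call it (log2 -9.50, SE 1.76, adjusted p = 0.0851), and type I library 1 held most of the counts of its group. It was called without type I library 1, and that was the only such comparison of the 6 in which it was. Trdn, triadin of the calcium release complex, had 1064 ± 323 CPM in type I, against 3697 ± 379 CPM in type IIb libraries (adjusted p = 0.156). The call of Atp2a2 was kept in 1 of the 6 leave-one-out comparisons (adjusted p up to 0.251) and that of Casq2 in 3, while those of Sln and Casq1 were kept in all 6.

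Several glycolytic enzymes were lower in type I, and 1 subunit of lactate dehydrogenase was higher. Of 17 genes on the glycolysis list 5 were called lower and 1 higher, and the median log2 fold change was -1.95, or -1.69 and -1.41 with RLE factors and library totals. Ldha, the subunit that favours making lactate, had 339, 209.7 and 172 CPM in type I, against 1088, 2821 and 2832 CPM in type IIb libraries, 10.6-fold lower (adjusted p = 0.00747). Ldhb, the subunit that favours using lactate, had 1438, 2408 and 1587 CPM in type I, against 0.432, 0.641 and 0.275 CPM in type IIb libraries, 3737-fold higher (adjusted p = 0.0186). The lactate dehydrogenase pair thus went opposite ways. Eno3, the muscle enolase, had 382 ± 304 CPM in type I, against 4200.1 ± 141 CPM in type IIb libraries (adjusted p = 0.0382), and Pgam2, the muscle phosphoglycerate mutase, 758 ± 402 CPM in type I, against 3592 ± 669.5 CPM in type IIb (adjusted p = 0.0250). Aldoa, aldolase A, had 1801 ± 708 CPM in type I, against 7648 ± 1463 CPM in type IIb libraries (adjusted p = 0.0185), and Gapdh, which makes bisphosphoglycerate, 901 ± 116 CPM in type I, against 3582 ± 657 CPM in type IIb (adjusted p = 0.0494). Folds of these 4 enzymes were 14.8, 5.51, 5.07 and 4.22. Gapdh lies just inside the threshold and was called in 4 of the 12 other settings (adjusted p up to 0.282), with the call lost under DESeq2, RLE factors and library totals among others. Reads of Gapdh and Ldha may be split with their processed pseudogenes. Without single libraries the calls were less firm: Eno3, Gapdh and Ldhb were called in none of the 6 leave-one-out comparisons, Pgam2 in 2, Aldoa in 4 and Ldha in 5. Tpi1, triosephosphate isomerase, had 273 ± 106 CPM in type I, against 1155 ± 318 CPM in type IIb libraries (adjusted p = 0.158), and Pkm, pyruvate kinase, 371 ± 129 CPM in type I, against 1036 ± 116 CPM in type IIb (adjusted p = 0.230).

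Glycogen genes followed with 2 of 14 called lower, none higher and a median log2 fold change of -1.35. Phkb, the regulatory beta subunit of phosphorylase kinase, had 65.6, 83.6 and 45.2 CPM in type I, against 443, 546 and 399 CPM in type IIb libraries, 8.07-fold lower (adjusted p = 0.0290). Ppp1r3a, which targets protein phosphatase to glycogen, had 313, 248 and 159 CPM in type I, against 708, 1229 and 1723 CPM in type IIb libraries, 5.80-fold lower (adjusted p = 0.0382). The groups did not overlap for either gene, but Phkb was called in none and Ppp1r3a in 1 of the 6 leave-one-out comparisons. Of the 12 other settings Phkb was called in 7 and Ppp1r3a in 4 (adjusted p up to 0.440 and 0.395), and limma on log2(FPKM + 1) called no glycogen gene. None of the 13 genes of glucose and lactate transport was called by edgeR, with a median of 0.39. At an unadjusted p under 0.05 there was 1 higher and 3 lower, while DESeq2 called 1 and 2, limma-voom 2 and 3, and limma on log2(FPKM + 1) none. Slc16a1, a lactate transporter of oxidative fibres, had 204 ± 49.5 CPM in type I, against 40.8 ± 50.2 CPM in type IIb libraries (adjusted p = 0.371), and Slc16a3, that of glycolytic fibres, 2.83 ± 1.90 CPM in type I, against 72.02 ± 38.7 CPM in type IIb (adjusted p = 0.230). None of the 9 tested genes of phosphocreatine and adenylate buffering was called by edgeR either (median 0.72, with 2 higher and 3 lower at an unadjusted p under 0.05). DESeq2 called 1 of them higher, limma-voom 3 lower and limma on log2(FPKM + 1) none.

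Mitochondrial genes gave 1 call. Idh2, the mitochondrial isocitrate dehydrogenase that makes NADPH (chr7:80094846-80115392), had 1181, 1556 and 877 CPM in type I, against 28.6, 40.4 and 17.4 CPM in type IIb libraries. It was 37.1-fold higher (log2 5.38, SE 0.54, adjusted p = 9.32e-06) and was called in all 6 leave-one-out comparisons and under all 12 other settings. It was the only edgeR and DESeq2 call among 21 genes of the tricarboxylic acid cycle, whose median was 0.05, below that of all genes. Limma-voom called 1 higher and 2 lower and limma on log2(FPKM + 1) 2 higher, among them Mdh1. Mdh1, cytosolic malate dehydrogenase, had 2096 ± 668 CPM in type I, against 462 ± 373 CPM in type IIb libraries (adjusted p = 0.173). None of the 76 nuclear-encoded genes of oxidative phosphorylation was called by edgeR, DESeq2 or limma on log2(FPKM + 1), while 5 were lower at an unadjusted edgeR p under 0.05 and limma-voom called 13 lower. Their median was -0.30 (0.18 with library totals alone, where its sign flips), and none of the 76 lay above the median of all genes. Cox6a2 and Cox7c, subunits of cytochrome oxidase, had 4059 ± 797 and 2509 ± 1342 CPM in type I libraries, against 9251 ± 143 and 4727 ± 816 CPM in type IIb libraries (adjusted p = 0.230 and 0.462). All 13 mitochondrially encoded protein genes had a log2 fold change below 0 (median -1.73). For 11 all type I libraries lay below all type IIb libraries, as for 4.88% of all genes tested. Together the 13 took a mean of 11.3% of counts in type I and 22.1% in type IIb libraries, so they are not separate observations. None was called by edgeR, DESeq2 or limma on log2(FPKM + 1). At an unadjusted edgeR p under 0.05 there were 7 lower ones, and limma-voom called 8 lower. The most abundant of them were mt-Cytb with 21767 ± 5604 CPM in type I, against 86115 ± 21829 CPM in type IIb libraries (adjusted p = 0.230) and mt-Nd1 with 14079 ± 4908 CPM in type I, against 42702 ± 4732 CPM in type IIb (adjusted p = 0.235). Fatty acid genes leaned the other way, with 24 of 27 tested genes above 0 (66.5% of all genes were above and 33.5% below) and a median of 1.40, and edgeR called none. At an unadjusted p under 0.05 there were 8 higher ones, and DESeq2 called 3 higher, limma-voom 3 and limma on log2(FPKM + 1) 4. Lpl, lipoprotein lipase, had 2614, 2750.3 and 1580.4 CPM in type I, against 155, 175 and 72.6 CPM in type IIb libraries (adjusted p = 0.288), and Fabp3, the fatty acid binding protein of heart and slow muscle, 713, 1195 and 1408 CPM in type I, against 24.5, 188 and 77.9 CPM in type IIb (adjusted p = 0.0896). Both were several-fold apart without overlap. Endothelial markers moved the same way (58.0 to 1887 CPM in type I libraries and 0 in type IIb libraries), and their part in the fatty acid list was not tested.

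**Figure D4:**
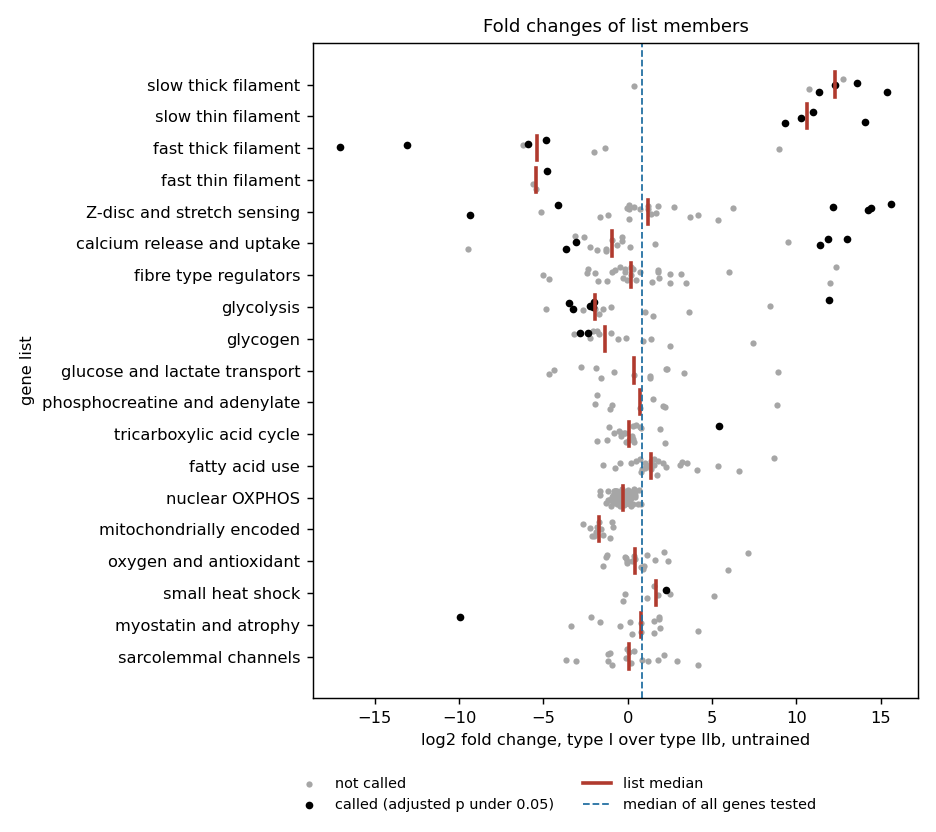
Log2 fold change, type I over type IIb in untrained mice, of every tested member of 19 gene lists, with called genes in black, the list median as a red bar and the median of all genes tested (0.85) as a dashed line. Slow contractile lists lie far to the right and fast ones to the left, glycolysis and glycogen lie left of the dashed line, and the 76 nuclear oxidative phosphorylation genes form a tight group just left of it.

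Fibre type regulators gave no edgeR call among 30 tested genes, with 16 above and 14 below 0 and a median of 0.19. At an unadjusted p under 0.05 there were 6 higher and 3 lower, while DESeq2 called 3 and 1, limma-voom 4 and 2, and limma on log2(FPKM + 1) 2 and 1. Maf, a transcription factor tied to the fast IIb programme, had 20.8, 25.3 and 10.7 CPM in type I, against 507, 370.1 and 588 CPM in type IIb libraries, groups that did not overlap (log2 -4.69, SE 1.18, adjusted p = 0.114). Tbx15, a T-box factor of glycolytic fibres, had 113 ± 44.8 CPM in type I, against 425 ± 106 CPM in type IIb libraries (adjusted p = 0.230). Rcan1, a calcineurin inhibitor, had 661 ± 379 CPM in type I, against 190.2 ± 134 CPM in type IIb (adjusted p = 0.230), and Mef2c, a muscle transcription factor, 683 ± 287 CPM in type I, against 541 ± 156 CPM in type IIb (adjusted p = 0.941). The errors of these 4 genes were 0.52 to 1.18 on the log2 scale.

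Cryab, alpha-B crystallin, a small heat shock protein that guards desmin and the Z-disc, was the only edgeR and DESeq2 call among 8 small heat shock genes (median 1.66), of which 4 were higher at an unadjusted edgeR p under 0.05. Limma-voom called 2 higher and limma on log2(FPKM + 1) 3. It had 4295, 6595 and 3897 CPM in type I, against 1457, 664 and 956 CPM in type IIb libraries, 4.61-fold higher (log2 2.26, SE 0.36, adjusted p = 0.00293), and 17.04% of its exon bases overlap Hspb2. Hspb6 and Hspb1 had 2022 ± 626 and 1038 ± 264 CPM in type I libraries, against 589.5 ± 313 and 357 ± 289 CPM in type IIb libraries (adjusted p = 0.230 for each). Myostatin, Mstn, the secreted inhibitor of muscle growth, was the only edgeR call among 15 tested genes of myostatin signalling and atrophy (median 0.79). DESeq2 and limma on log2(FPKM + 1) likewise called it alone, and limma-voom also called 1 gene higher. It had 0.179, 0 and 0.0529 CPM in type I libraries, 5 counts in all, and 68.2, 69.6 and 117 CPM in type IIb libraries, 1168-fold lower in type I (log2 -9.95, SE 1.94, adjusted p = 0.0194). It was called in 2 of the 6 leave-one-out comparisons (adjusted p up to 0.161). None of 19 oxygen and antioxidant genes (median 0.45) and none of 17 tested channel and pump genes of the sarcolemma (median 0.06) was called by edgeR or DESeq2. At an unadjusted edgeR p under 0.05 there was 1 oxygen and antioxidant gene, higher in type I, and no channel gene. limma-voom called 1 oxygen gene and 2 channel genes higher, and limma on log2(FPKM + 1) called 1 oxygen gene higher.

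Other called genes lay outside these lists. Rrad, a small GTPase that restrains voltage-gated calcium channels, had 537, 699.8 and 354 CPM in type I libraries and 1 count in type IIb libraries (adjusted p = 4.23e-05). Ablim1, an actin-binding LIM protein, had 430.5, 782 and 411 CPM in type I libraries and likewise 1 count in type IIb libraries (adjusted p = 0.00207). Cyfip2, a component of the WAVE actin-regulating complex, had 64.4, 125 and 66.98 CPM, Dkk2, a secreted modulator of Wnt signalling, 145, 116 and 31.8 CPM and Cmtm8, a MARVEL-domain membrane protein, 60.6, 99.2 and 37.5 CPM in type I libraries. All 3 were at 0 in every type IIb library and were at least 849.9-, 834- and 606-fold higher in type I (adjusted p = 0.0172, 0.0250 and 0.0494). Khdrbs3, an RNA-binding splicing regulator, had 104, 190.1 and 89.97 CPM in type I and 4 counts in type IIb libraries (adjusted p = 0.0194). Of these 6 genes Rrad alone was called in all 6 leave-one-out comparisons.

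Myl12a, a regulatory light chain of non-muscle myosin, had 982, 1124 and 1078 CPM in type I, against 88.97, 172 and 147 CPM in type IIb libraries. It was 7.59-fold higher (adjusted p = 0.00422), and 19.9% of its exon bases overlap Myl12b and Myom1. It was called in all 6 leave-one-out comparisons, but not with no filter on low counts (adjusted p = 0.0693). Nor was it called under the 2 settings added after seeing the data, one of which leaves 1 type I library. Endothelial and fibroblast markers were higher in type I libraries too. Within type I, Myl12a was highest in library 2, where both marker sums were lowest (58.0 and 27.0 CPM). The part of these cells in the Myl12a call was not tested. Sparc, a secreted matrix protein made by fibroblasts and endothelial cells, had 139, 20.5 and 2024 CPM in type I, against 0.216, 2.00 and 10.2 CPM in type IIb libraries, 273-fold higher (log2 7.45, SE 1.58, adjusted p = 0.0373). Type I library 3 was far above the others and was also the highest in fibroblast markers (9605 CPM, against 300 and 27.0 in libraries 1 and 2). Sparc was called in 6 of the 12 other settings. Without that library it was not called, nor was it without type IIb library 1 or 2 (adjusted p up to 0.405). The part of fibroblast RNA in this call was not tested.

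A further 4 higher features have no role given here. Gm34302, listed as protein coding, and the authors' unnamed feature at chr6:58746468-58780595 were at 0 in all type IIb libraries and at least 726- and 1056-fold higher in type I. Gm5532, a long non-coding RNA, had 77.01 ± 22.5 CPM in type I libraries and 1 count in type IIb libraries. Gm43359 (chr5:122482800-122484999) lies inside the span of Atp2a2 but shares no exon base with another gene, so unspliced reads of Atp2a2 could be counted for it.

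Among the lower genes outside the lists Tspan8, a membrane protein of the tetraspanin family (chr10:115816832-115849893), had no count in type I libraries, against 339, 269 and 555 CPM in type IIb libraries. It was at least 8781-fold lower in type I (adjusted p = 1.45e-05), and no other lower gene was at 0 in all type I libraries. Sar1b, a GTPase of vesicle budding from the endoplasmic reticulum, had 109.8, 80.9 and 131 CPM in type I, against 2192, 1712 and 1269.5 CPM in type IIb libraries, 14.7-fold lower (adjusted p = 0.000655). Tspan8 and Sar1b were called in all 6 leave-one-out comparisons and under all 12 other settings. Actc1, cardiac alpha-actin, which skeletal muscle makes mainly before birth, had 32.9, 26.3 and 119 CPM in type I, against 3561, 656 and 1965 CPM in type IIb libraries, 24.3-fold lower (adjusted p = 0.0185). The type IIb libraries were spread widely, and the call was kept in 3 of the 6 leave-one-out comparisons. Ddit4l, an inhibitor of mTOR signalling, had 57.7 ± 14.2 CPM in type I, against 583 ± 101 CPM in type IIb libraries (adjusted p = 0.0176), and Klhl31, a kelch-like protein of muscle, 337 ± 49.01 CPM in type I, against 1983 ± 297 CPM in type IIb (adjusted p = 0.0304). The gene 2310002L09Rik, whose role is not given here, had 92.3 ± 19.7 CPM in type I, against 705 ± 177 CPM in type IIb libraries (adjusted p = 0.0176). Mylf-ps, a processed pseudogene named after Mylpf, had 15.3 ± 6.24 CPM in type I, against 629 ± 191 CPM in type IIb (adjusted p = 0.00384), and its counts are uncertain because reads of Mylpf could be assigned to it. Ddit4l was called in 1, 2310002L09Rik in 2 and Klhl31 in none of the 6 leave-one-out comparisons, and Klhl31 was called in 6 of the 12 other settings.

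Trained mice gave the same comparison in 6 further libraries, which were fitted together with the untrained ones. Both sets share the gene filter, the TMM scaling and the estimate of the spread. Fibre type goes with muscle and digestion time in trained mice too. In trained mice 28 genes (0.238%) were called above type IIb in type I and 35 (0.298%) below. Of the 54 genes called in untrained mice, 47 were called in the same direction in trained mice, 26 of 30 higher and 21 of 24 lower. The sign was the same for 29 of 30 and 24 of 24. The exception was Sparc, with 21.7, 15.7 and 25.01 CPM in type I trained libraries and 20.7, 23.9 and 84.1 CPM in type IIb trained libraries (log2 -1.05, adjusted p = 0.961). Casq2, Cmtm8 and Ablim1 kept their sign without being called (adjusted p = 0.312, 0.234 and 0.0819). Ablim1 had 943, 387 and 604 CPM in type I trained and 0.129, 0.181 and 25.4 CPM in type IIb trained libraries, and Casq2 had 366, 83.99 and 249 CPM in type I trained, against 0, 0 and 13.6 CPM in type IIb trained libraries. For these, type IIb library 3 of the trained group was the one with counts well above 0, and its fibroblast (311 CPM) and endothelial (294 CPM) marker sums were the highest of that group. The part of that library in the lost calls was not tested. On the lower side 2310002L09Rik (log2 -0.28), Klhl31 (-1.22) and Ppp1r3a (-1.46) were not called in trained mice (adjusted p = 0.993, 0.610 and 0.445).

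Whether the difference between the fibre types itself depended on training was tested as an interaction. No gene was called by edgeR (0 of 11747), with 1050 genes (8.94%) at an unadjusted p under 0.05. DESeq2 called 363 genes above and 27 below 0, limma-voom 3 above, and limma on log2(FPKM + 1) none. Of the 54 genes called between the fibre types, DESeq2 called the interaction for 2, Sparc and Ablim1, and the other tools for none. By edgeR, 10 of 30 higher and 2 of 24 lower ones had an unadjusted interaction p under 0.05. The smallest adjusted p among them was 0.418, reached by Sparc, Myl2 and Ablim1 among others. The interaction, untrained minus trained, was 8.50 on the log2 scale for Sparc, -4.46 for Myl2 and 7.55 for Ablim1. Myl2 had 12424, 25288 and 3647 CPM in type I trained and 0, 0.181 and 0 CPM in type IIb trained libraries, so it was higher in type I in both sets of mice. A loss of the call in trained mice is therefore not shown by edgeR to be a difference between trained and untrained mice for any of the 7 genes, and DESeq2 gave such a difference for Sparc and Ablim1.

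**Figure D5:**
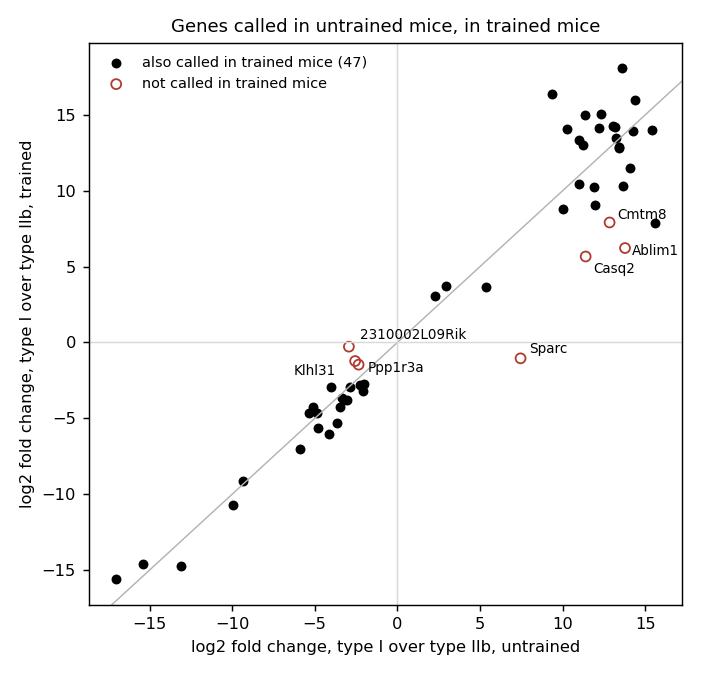
Log2 fold change, type I over type IIb, in trained mice (vertical) and untrained mice (horizontal) for the 54 genes called in untrained mice, with the diagonal of equal change. The 47 genes also called in trained mice (black) lie in the same quadrant on both axes, and of the 7 others (red, named) Sparc alone lies across 0 (log2 -1.05 in trained mice).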

How the data were processed

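The deposited values are read counts per gene, which the authors did not normalise, and FPKM values, which the authors scaled to gene length and library total. Per the submitters' processing notes TopHat2 and mm10 were used, while no source used here gives the counting program or the annotation. The table lists 56162 features, 761 of them without an Ensembl identifier. Depth was 9707337 to 24995288 counts per library here, and 1 count was worth 0.0400 to 0.103 CPM of the library total.

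The main test was edgeR's quasi-likelihood test (edgeR 4.0.16 in R 4.3.3, robust, TMM), fitted to all 12 libraries with one mean per group. Genes passed edgeR's expression filter (minimum count 10, minimum total 15), which was applied anew in each fit with libraries left out. Calls needed a Benjamini-Hochberg adjusted p under 0.05 over all genes tested. SE was taken as the size of the log2 fold change over the root of F. Folds are counts pooled over a group per TMM-scaled library size. Against 0 counts they are lower bounds from 3 counts over the group, and against 1 to 3 counts they carry a 95% interval. Fitted log2 values of such genes depend on the prior count and are no bound. Intervals and floors cover counting error only, since reads carry no molecular identifiers.

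Alternatives used DESeq2 1.42.0, limma 3.58.1 (voom with quality weights, or log2 of FPKM plus 1 or 0.1), other scalings and filters, a replicate block and leaving out each library. Gene lists, pairs and the naming rule (all called genes, both members of each pair, and up to 4 abundant uncalled members per list) were chosen with earlier results of these data known. Promoters are from RefSeq (GRCm38.p6), and exon overlaps from GENCODE M21 (mm10).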

Additional observations from a re-analysis of the deposited data

How the results depend on the processing

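Against 30 higher and 24 lower genes by edgeR, DESeq2 called 963 and 68 (1368 genes without an adjusted p), limma-voom with quality weights 1625 and 240, limma on log2(FPKM + 1) 305 and 37, and limma on log2(FPKM + 0.1) 282 and 30. No filter on low counts gave 93 and 30, library totals alone 35 and 14, RLE factors 28 and 19, no robust prior 28 and 14, a minimum count of 30 gave 32 and 26, libraries without mitochondrial genes 29 and 26, and the 6 untrained libraries alone 28 and 29. The 6 untrained libraries alone kept 40 of the 54 main calls (22 higher and 18 lower), so similar totals do not mean the same genes. RLE factors kept 47 of the main calls, library totals 43 and no robust prior 40. Leaving out 1 library gave 14 to 29 higher and 8 to 21 lower genes. Genes also called in the same direction in trained mice numbered 47, against 187 with DESeq2, 100 with voom, 83 and 81 with the FPKM fits, and 20 to 40 with 1 library left out. Without type I libraries 1 and 3 (added after seeing the data, leaving 1 type I library) 12 and 7 genes were called, 18 of them also in trained mice, and without library 1 of each fibre type 18 and 16 (34 also in trained mice). The cause of these shifts was not tested.

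None of the 54 called genes changed its sign in any of the 20 settings. Called under all 12 other fits and all 6 leave-outs were Myoz2, Ankrd2, Myh7, Idh2, Myom3 and Pdlim1 (higher) and Mybpc2, Tspan8, Sar1b, Casq1 and Mylf-ps (lower). Among uncalled genes Mybpc1 reversed to -0.0545 (log2) without library 1 of each fibre type (added after seeing the data), and Mef2c to -0.0782 without type I library 2, its leave-one-out range being -0.0782 to 0.595. In the gene counts per library the difference was 5678 genes, 4361 to 7128 with 1 library left out, 5231 with libraries thinned to equal totals and 7411 at a minimum of 1 count. The mitochondrial share differed by -10.2 percentage points, -12.2 to -8.67 with 1 library left out.

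The labels give the groups the same replicate numbers but do not say whether these pair the samples. Deviations from the group means had correlations of -0.031, -0.018 and -0.017 between same-numbered libraries. Between libraries of different number they were -0.029 to 0.052. All lie near 0, and with 3 libraries per group they cannot decide whether same-numbered libraries share an animal or a day of processing. With a replicate block 21 genes were called higher and 21 lower, 40 of them also called without it.

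In type IIb libraries 7 of the 30 higher genes had 0 counts in all and 8 had 1 to 3, so their folds have no firm upper end. The part of sequencing depth in these low counts was not tested.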
